A study of Homo sapiens with 4 samples.

Results

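The centrosome and centriole genes described here were every gene symbol starting with CEP and a digit, with CENPJ, CCDC18, PLK4, STIL, SASS6, PCNT, CNTROB, CDK5RAP2, OFD1, PCM1, CCP110, NIN, AKAP9, ODF2, SPICE1 and POC5. There were 44 such genes among the 23228 symbols counted, and 43 of them passed the filter on low counts. They were chosen by measured values of the LY500307 against vehicle contrast, since CENPJ and CCDC18 were lower after LY500307, so the contrast is given for them as a description and no test of it supports the choice. RNA-seq was done on SKOV3-ALDH+ OCSCs, which are ovarian cancer stem cells sorted by ALDEFLUOR for high aldehyde dehydrogenase activity from SKOV3, 1 established human ovarian cancer cell line, and grown as spheroids without serum. Vehicle (2 samples) or 5 µM LY500307 (2 samples), an agonist of estrogen receptor beta, was given for 24 h. The labels number the replicates and do not state whether these were separate cultures, so the spread between them may be technical. Between 28841701 and 34943882 reads per sample were counted on genes.

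The centrosome organizes the microtubules of an animal cell and the poles of its spindle. It holds a pair of centrioles inside a protein coat, the pericentriolar material, and each centriole is copied once per cell cycle, when the kinase PLK4 starts a cartwheel made of SASS6 and STIL. A mature centriole carries appendages with which it anchors microtubules or docks at the membrane as the base of a cilium, and small granules called satellites carry proteins to it. PLK4, SASS6, STIL and CEP55 are among the genes transcribed mostly in dividing cells. In bulk RNA, fewer cells of a type and less RNA per cell cannot be told apart.

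Most centrosome genes were lower in the LY500307 samples. The log2 fold change of LY500307 against vehicle was negative for 36 and positive for 7 of the 43 genes that passed the filter, where 50% of all 14473 genes tested were negative. The median was -0.26, against -5.64e-05 over all genes tested. In CPM, the read count per gene scaled to a common library size (by TMM), both LY500307 samples lay below both vehicle samples for 28 genes, or 65.1%, with 24.4% of all genes placed so. Both lay above for 2 genes, CEP68 and POC5 (24.2% of all genes), and the groups overlapped for 13. At the criteria of the study, a log2 fold change beyond 0.5 in size with an unadjusted p below 0.05, 3 were lower (CCDC18, CENPJ and CEP55), where 1.86% of all genes were called lower. None was called higher, where 2.76% of all genes were, and no centrosome gene with a positive fold change had an unadjusted p below 0.05 in edgeR or DESeq2. DESeq2 called the same 3 genes lower, with 1.44% of all genes. Nothing is read from these counts, because the genes were chosen with this contrast known. After Benjamini-Hochberg adjustment edgeR gave 0 of all genes below 0.05 (1678 at an unadjusted p below 0.05) and DESeq2 gave 20, of which 0 were centrosome genes, and an exact permutation test of 2 against 2 samples cannot give a two-sided p below 0.333.

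**Figure D1:**
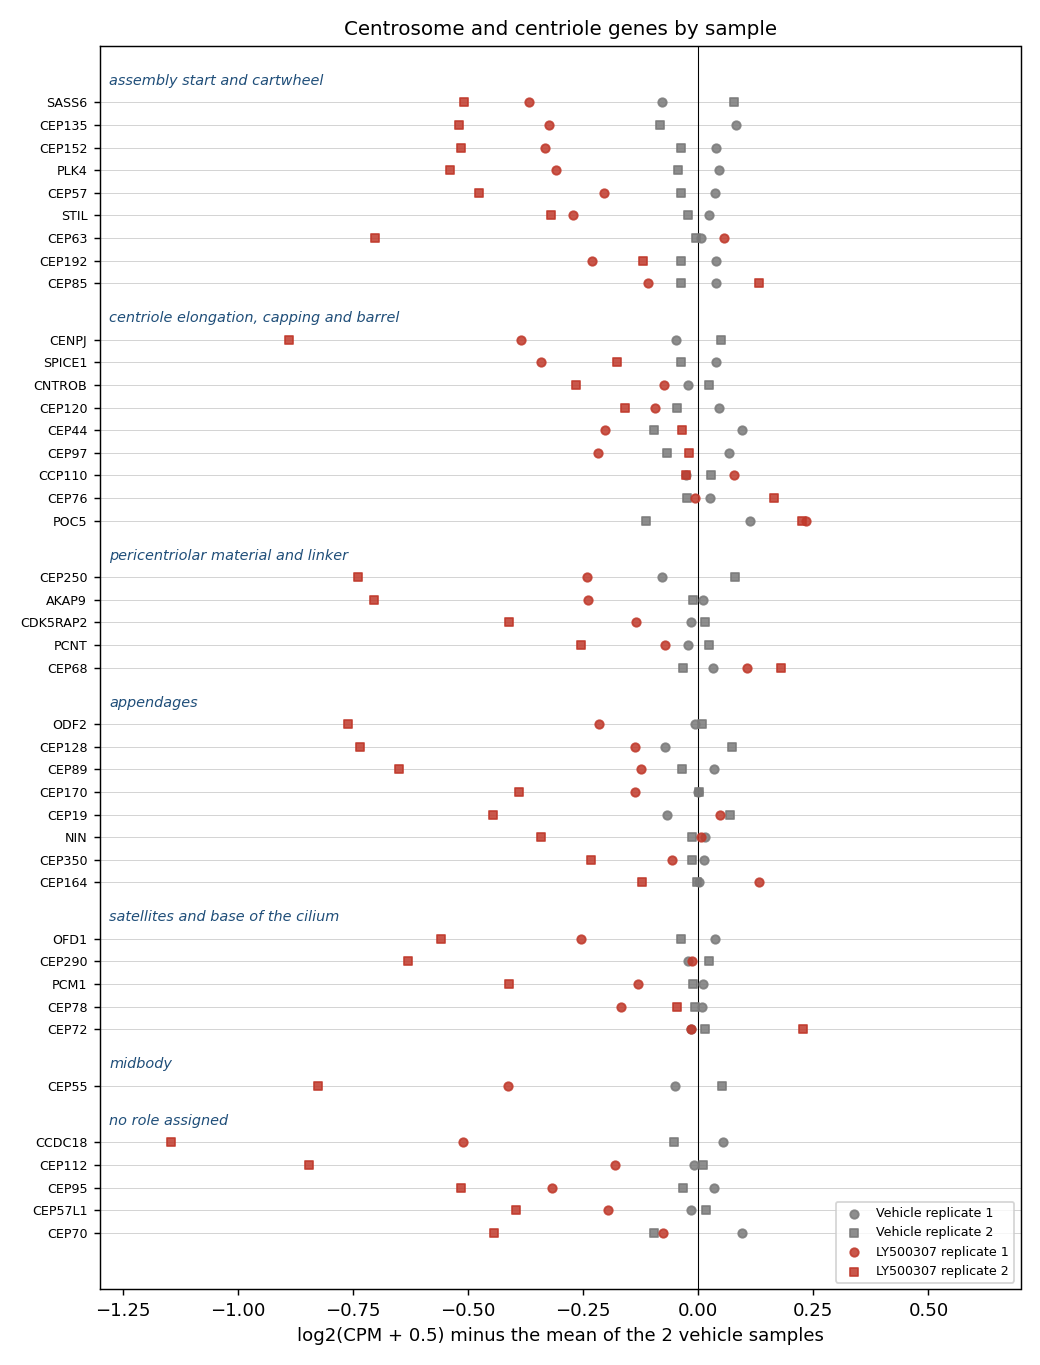
Each row is a centrosome gene, grouped by the role of its protein, and the horizontal axis is log2(CPM + 0.5) minus the mean of the 2 vehicle samples. Grey points are the vehicle samples and red points the LY500307 samples, with circles for replicate 1 and squares for replicate 2. CCDC18 reaches -1.15 in LY500307 replicate 2, and the red square lies left of the red circle for most of the 42 genes drawn.

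The largest difference was that of CCDC18, which encodes a coiled-coil protein and lies at chr1:93645476-93744287 of hg19 on the plus strand. It had 1164 and 1025 reads after vehicle and 906 and 538 after LY500307. The normalised values were 38.8 and 36.1 CPM in the vehicle samples and 26.1 and 16.6 CPM in the LY500307 samples. No LY500307 value reached the vehicle values, and replicate 2 was much the lower of the pair. The means were 37.5 ± 1.96 CPM in the vehicle group and 21.4 ± 6.69 CPM in the LY500307 group (SD, n = 2), a log2 fold change of -0.81 (SE 0.20).

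CENPJ, whose product (also called CPAP) binds tubulin and sets the length to which a new centriole grows, lies at chr13:25456417-25497027 of hg19 on the minus strand. It had 2616 and 2657 reads after vehicle and 2398 and 1568 after LY500307. The normalised values were 87.3 and 93.5 CPM in the vehicle samples and 69.1 and 48.5 CPM in the LY500307 samples, so the groups did not overlap. The means were 90.4 ± 4.39 CPM in the vehicle group and 58.8 ± 14.6 CPM in the LY500307 group (SD, n = 2), and the log2 fold change was -0.62 (SE 0.16). Against the vehicle mean, replicate 1 of LY500307 was at -0.38 and replicate 2 at -0.89 on the log2 scale. With LY500307 replicate 2 left out, CENPJ was at -0.39, CEP55 at -0.42 and CCDC18 at -0.52, so that CENPJ and CEP55 were inside the fold limit of 0.5. That fit has 1 LY500307 sample and takes its spread from the vehicle pair alone.

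CEP55 acts at the midbody, where it recruits the machinery that cuts the bridge between daughter cells, and lies at chr10:95256369-95288849 of hg19 on the plus strand. It had 1392 and 1417 reads after vehicle and 1249 and 870 after LY500307. The normalised values were 46.4 and 49.9 CPM in the vehicle samples and 35.99 and 26.9 CPM in the LY500307 samples. As for the other two, every LY500307 value was below every vehicle value, and the larger difference was in replicate 2. The means were 48.2 ± 2.41 CPM in the vehicle group and 31.5 ± 6.41 CPM in the LY500307 group (SD, n = 2), with a log2 fold change of -0.61 (SE 0.16). CEP55 was the gene just inside the fold criterion, and CEP112, at -0.48, the one just outside it.

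Promoter sequences are shown for CCDC18 and CEP55, which met the criteria, and for PLK4 and SASS6, which start a new centriole. They were taken from RefSeq, build GRCh38.p14, and run 5′ to 3′ on the strand of the gene from 250 bases before its start site to 50 after it. The motifs searched on both strands were TTTGAA (the cell cycle genes homology region, CHR), CCAAT, TTTCCCGC or TTTGGCGC (E2F) and the full palindromic estrogen response element. Capitals mark a match, as TTCAAA for TTTGAA and as GCGCCAAA for TTTGGCGC on the other strand. No marked motif overlaps another. The table has 2 entries for CCDC18 and 3 for PLK4, of which the first is shown. The windows lie at chr1:93180466-93180765 (plus), chr10:93496362-93496661 (plus), chr4:127880643-127880942 (plus) and chr1:100132881-100133180 (minus).
CCDC18: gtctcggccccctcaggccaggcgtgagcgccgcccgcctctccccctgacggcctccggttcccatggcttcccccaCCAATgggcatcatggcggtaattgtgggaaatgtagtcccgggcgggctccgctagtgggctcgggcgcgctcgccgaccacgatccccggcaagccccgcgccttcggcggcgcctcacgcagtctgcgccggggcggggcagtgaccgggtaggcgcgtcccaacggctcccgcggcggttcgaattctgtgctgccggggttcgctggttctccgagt
CEP55: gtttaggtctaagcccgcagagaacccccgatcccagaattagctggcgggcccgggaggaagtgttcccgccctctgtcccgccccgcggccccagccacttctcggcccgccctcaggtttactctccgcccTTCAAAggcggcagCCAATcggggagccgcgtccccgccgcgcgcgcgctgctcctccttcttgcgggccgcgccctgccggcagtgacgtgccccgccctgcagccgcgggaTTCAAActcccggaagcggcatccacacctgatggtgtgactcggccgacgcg
PLK4: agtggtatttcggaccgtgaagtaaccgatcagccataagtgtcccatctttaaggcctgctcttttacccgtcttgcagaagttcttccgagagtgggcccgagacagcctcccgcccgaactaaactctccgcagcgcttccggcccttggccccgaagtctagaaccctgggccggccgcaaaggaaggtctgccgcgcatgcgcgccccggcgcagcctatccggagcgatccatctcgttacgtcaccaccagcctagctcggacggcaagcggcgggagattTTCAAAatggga
SASS6: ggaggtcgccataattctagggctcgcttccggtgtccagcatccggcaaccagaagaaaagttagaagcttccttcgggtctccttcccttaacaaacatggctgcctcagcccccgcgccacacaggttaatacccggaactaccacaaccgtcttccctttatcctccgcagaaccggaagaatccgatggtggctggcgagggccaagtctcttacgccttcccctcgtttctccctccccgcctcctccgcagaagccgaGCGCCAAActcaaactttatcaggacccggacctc
CEP55 has TTTGAA in both places marked, 1 of them across the start site, with a CCAAT beside the other. In the entries shown, PLK4 has TTTGAA after its start site and SASS6 has an E2F match after its own. Another PLK4 entry, at chr4:127881381-127881680 and not shown, has CCAAT at -86 to -82 from its start site. Of the 44 genes, 37 had an entry, with 54 entries in all. Those that did not match one included CENPJ, CEP78, CEP250, PCM1, CEP170P1 and SPICE1. TTTGAA was in 31.5% of these entries and in 15.2% of all 35116 entries, CCAAT in 44.4% and 34.6%, and the E2F letters in 7.41% and 2.27%. The 4 genes with E2F letters were SASS6, CEP63, ODF2 and CEP192. The estrogen response element was in 0 of the 54 entries and in 0.057% of all entries. A match to letters is not a binding site, and its absence says only that these letters are not in the window.

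Genes that start a centriole and build the cartwheel were lower in 8 of 9 cases, with a median log2 fold change of -0.34. Both LY500307 samples lay below both vehicle samples for 7 of them, where 24.4% of all genes were placed so. PLK4, the kinase that sets off duplication, had 67.00 and 62.9 CPM in the vehicle samples and 52.3 and 44.6 CPM in the LY500307 samples. SASS6, the cartwheel's main building block, had 42.1 and 47.04 CPM in the vehicle samples and 34.4 and 31.1 CPM in the LY500307 samples. STIL, which PLK4 phosphorylates so that it binds SASS6, had 54.3 and 52.6 CPM in the vehicle samples and 44.2 and 42.7 CPM in the LY500307 samples. The groups did not overlap for any of the 3, and the LY500307 replicates lay closer together than for CCDC18. The log2 fold change was -0.42 (SE 0.12) for PLK4, -0.44 (SE 0.12) for SASS6 and -0.30 (SE 0.11) for STIL.

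CEP152 and CEP192 are scaffolds that bring PLK4 to the centriole, and the groups did not overlap for either. CEP152 had 45.98 and 43.6 CPM in the vehicle samples and 35.4 and 31.2 CPM in the LY500307 samples, a log2 fold change of -0.43 (SE 0.12). CEP192 had 111 and 105 CPM in the vehicle samples and 92.1 and 99.5 CPM in the LY500307 samples, a log2 fold change of -0.18 (SE 0.10), and its lower LY500307 value was in replicate 1. CEP63, the partner of CEP152, was at 0.06 in LY500307 replicate 1 and -0.70 in replicate 2 against the vehicle mean, so its value of -0.28 came from replicate 2 alone and the groups overlapped. CEP135, which ties the cartwheel to the microtubules of the wall, had 33.5 and 29.8 CPM in the vehicle samples and 25.2 and 21.9 CPM in the LY500307 samples and a log2 fold change of -0.43 (SE 0.14). CEP57, which forms a ring with CEP63, was at -0.34. CEP85, a partner of STIL, was at 0.02, with 1 LY500307 sample on either side of the vehicle mean.

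Genes for the elongation, capping and barrel of the centriole were lower in 6 of 9 cases, with a median of -0.12. CENPJ was the lowest of them. Its partners in elongation had smaller differences, -0.26 for SPICE1 and -0.13 for CEP120, and CNTROB, which binds CENPJ, was at -0.17. The cap proteins CEP97 and CCP110, which keep the end of the centriole from growing, were at -0.12 and 0.03, and the groups overlapped for both. CEP76, which acts with CCP110 against a second duplication, was at 0.08, and CEP44, of the barrel, at -0.12. POC5, a protein inside the barrel, had 14.98 and 12.7 CPM in the vehicle samples and 16.3 and 16.2 CPM in the LY500307 samples. It was the highest of all the centrosome genes by log2 fold change, 0.23 (SE 0.15), and both LY500307 samples were 0.23 above the vehicle mean.

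Of 5 genes of the pericentriolar material and the linker between centrioles, 4 were lower, with a median of -0.27. CEP250, which forms the linker's base, had 155 and 173 CPM in the vehicle samples and 138 and 97.6 CPM in the LY500307 samples and a log2 fold change of -0.47 (SE 0.16). AKAP9, a large scaffold shared by centrosome and Golgi, had 312 and 308 CPM in the vehicle samples and 262 and 189.9 CPM in the LY500307 samples, at -0.45 (SE 0.15). In both genes replicate 2 was far below replicate 1. CDK5RAP2, which holds and activates the gamma-tubulin ring complex, had 150.4 and 154 CPM in the vehicle samples and 138 and 114 CPM in the LY500307 samples, a log2 fold change of -0.27 (SE 0.12). PCNT, the scaffold of the pericentriolar material, had 159 and 165 CPM in the vehicle samples and 154 and 136 CPM in the LY500307 samples, at -0.16 (SE 0.11). For both genes the groups did not overlap, with LY500307 replicate 1 the nearer to the vehicle values. CEP68, which sits on the linker beside CEP250, was on the other side, with 38.7 and 36.98 CPM in the vehicle samples and 40.7 and 42.9 CPM in the LY500307 samples and a log2 fold change of 0.14. Its transcript shares 2.60% of its bases with the opposite strand of RAB1A, and the strand setting of the counting was not given in the sources used here.

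Genes of the appendages were lower in 7 of 8 cases, with a median of -0.22. LY500307 replicate 2 was below replicate 1 in 8 of 8, where it was for 33 of 43 centrosome genes and 7156 of 14473 genes in all. ODF2, on which the appendages depend, had 276 and 279 CPM in the vehicle samples and 239 and 164 CPM in the LY500307 samples, a log2 fold change of -0.46 (SE 0.17). CEP128, of the subdistal appendages, was at -0.42, and CEP89, of the distal ones, at -0.38. These 3 genes were at -0.76 to -0.65 against the vehicle mean in replicate 2 and at -0.22 to -0.12 in replicate 1 on the log2 scale. CEP170 was at -0.26, CEP19 at -0.18, the microtubule anchor NIN at -0.16 and CEP350 at -0.14. CEP164, the distal appendage protein that starts cilium assembly, was at 0.01, with the LY500307 samples on either side of the vehicle mean.

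Among 6 genes of satellites and the base of the cilium, 5 were lower, with a median of -0.19. PCM1, the satellite scaffold, had 2551 and 2512 CPM in the vehicle samples and 2312 and 1903 CPM in the LY500307 samples, a log2 fold change of -0.26 (SE 0.13). OFD1, which limits centriole length and sits in satellites, was at -0.40, with no overlap between the groups. CEP290, of the gate at the base of the cilium, was at -0.01 in LY500307 replicate 1 and -0.63 in replicate 2, and 5.10% of its transcript is shared with C12orf29 on the opposite strand. CEP78 was at -0.11 and CEP72, a partner of PCM1, at 0.11. Of the genes given no role here beside CCDC18, CEP112 had 40.97 and 41.6 CPM in the vehicle samples and 36.4 and 22.7 CPM in the LY500307 samples, a log2 fold change of -0.48 (SE 0.20). CEP95 was at -0.42, CEP57L1 at -0.31 and CEP70 at -0.25. CEP170P1, a pseudogene copy of CEP170, had 0 reads in 3 samples and 2 in LY500307 replicate 2, and was not tested.

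**Figure D2:**
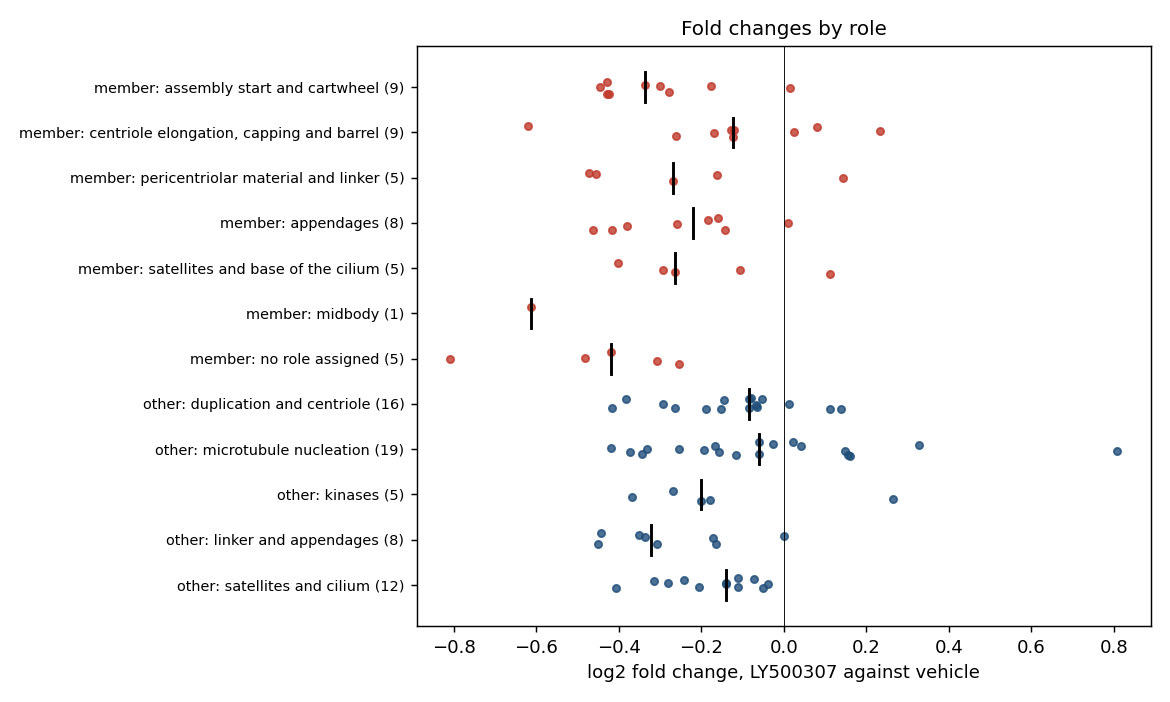
The horizontal axis is the log2 fold change of LY500307 against vehicle, each point is a gene (red for 42 of the centrosome genes chosen, blue for 60 other centrosome genes), and the black bar is the median of the genes drawn in each row, with the number of genes in parentheses. Points are spread vertically within a row only so that they can be told apart. CCDC18 at -0.81 is the farthest left and MZT2B at 0.81 the farthest right.

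The 2 LY500307 samples did not shift by the same amount. LY500307 replicate 1 was below the vehicle mean for 36 of the 43 genes, with a median of -0.14 (0.00198 over all genes tested). Replicate 2 was below it for 38, with a median of -0.41 (0.00173 over all genes tested). In replicate 1, 1 gene (CCDC18) was more than 0.5 log2 units below the vehicle mean, and 17 were in replicate 2. The shares of all genes below the vehicle mean or beyond that limit in each sample were not counted, so nothing is read from these counts. Replicate 2 was below replicate 1 for 33 of 43 centrosome genes and for 7156 of 14473 genes in all. The LY500307 samples differed by a median of 0.241 log2 units over the centrosome genes (0.199 over all genes tested), and the vehicle samples by 0.0683 (0.101). Where counting noise alone gives a chi-square per degree of freedom near 1, it was 5.27 between the vehicle samples and 44.9 between the LY500307 samples over all genes. The genes split by how even the 2 shifts were. SASS6 (-0.37 and -0.51), STIL (-0.27 and -0.32) and PLK4 (-0.31 and -0.54) were low in both. CEP112 (-0.18 and -0.85), CEP250 (-0.24 and -0.74) and ODF2 (-0.22 and -0.76) were low mostly in replicate 2. SPICE1 (-0.34 and -0.18) had its larger shift in replicate 1.

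**Figure D3:**
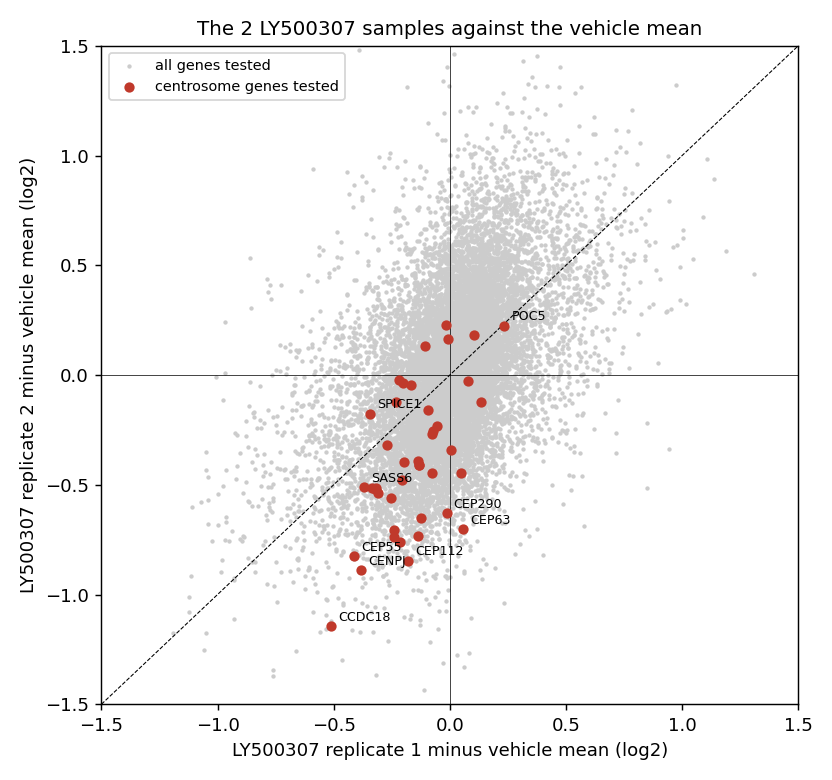
The axes give the log2 difference from the vehicle mean in LY500307 replicate 1 (horizontal) and replicate 2 (vertical), with all genes tested in grey, 42 centrosome genes in red and equal shifts on the dashed line. Genes beyond 1.5 log2 units are outside the frame. Most red points lie below the dashed line, with CCDC18 lowest at -0.51 and -1.15.

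Levels differed far more between centrosome genes than between the groups. Per kilobase of 1 transcript per gene (the MANE or canonical one), the vehicle mean was 293 CPM per kb for PCM1, 71.95 for ODF2 and 36.6 for CEP57. AKAP9 (24.8), CDK5RAP2 (24.4) and OFD1 (24.2) came next, and their vehicle values overlapped, so no order among them is read. The length, and so the level per kb, rests on the transcript chosen. At the low end were CEP89 (1.99) and CEP57L1 (0.814). The median level was 11.9 CPM per kb over centrosome genes and 9.23 over all genes with a length. PCM1 alone took 43.48% to 43.99% of the reads on centrosome genes, over the 4 samples. In order of level CEP55 moved from place 10 in the vehicle group to place 20 in the LY500307 group, and CENPJ from 11 to 21. Both genes met the criteria as lower, so a fall in place follows from that. Their LY500307 means (11.8 and 11.6 CPM per kb) lay close to those of CEP164 (12.0) and CNTROB (10.8), so no order among these is read. Summed over the 44 genes, the level was 5835 and 5777 CPM in the vehicle samples and 5256 and 4371 CPM in the LY500307 samples. Without PCM1 it was 3284 and 3265 CPM against 2944 and 2467 CPM, so the lower sum was not that of PCM1 alone.

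**Figure D4:**
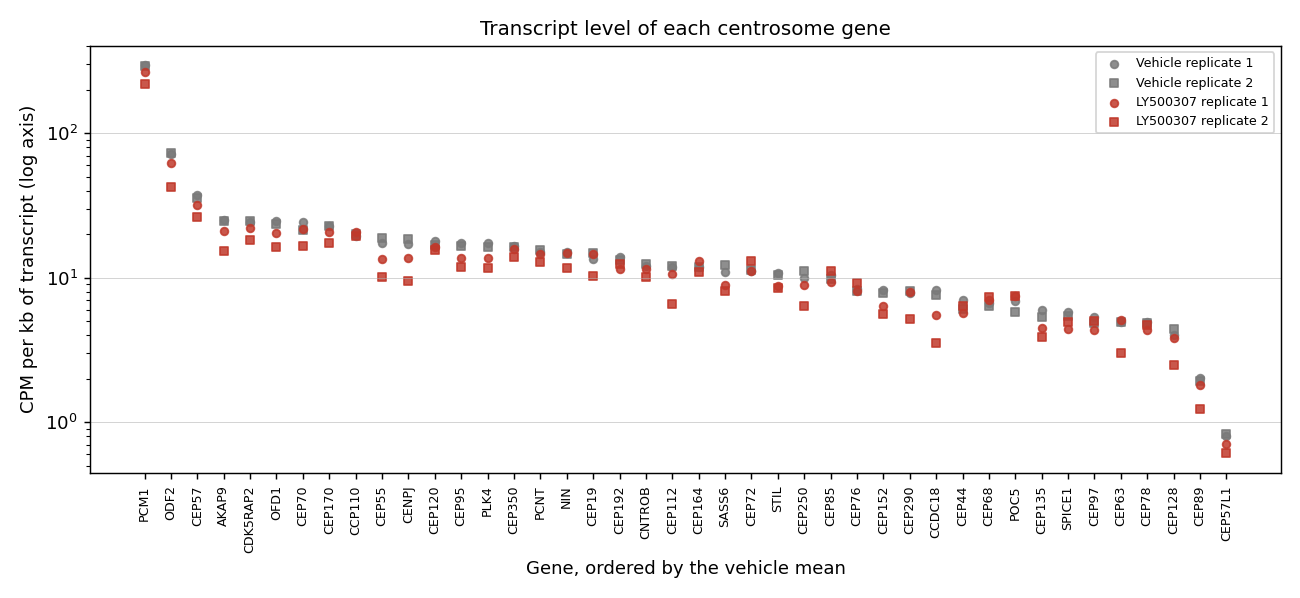
The vertical axis is CPM per kilobase of transcript on a log scale, and 42 genes that passed the filter are ordered along the horizontal axis by their vehicle mean, with grey for vehicle, red for LY500307, circles for replicate 1 and squares for replicate 2. PCM1 is highest and CEP57L1 lowest, and for most genes the 4 points lie close together on this scale.

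Transcript composition was compared too, since these genes are long and AT-rich. The median GC content of a transcript was 41.1% over the 43 genes and 48.6% over 13786 annotated genes tested, and the median length 5275 and 3318 bases. Across all those genes, Spearman's rho of the log2 fold change with GC content was 0.33, and with length -0.22, as a description over genes that share the same 4 libraries. Over the 43 genes rho was 0.18 with GC content and 0.05 with length. After each sample was corrected for GC content, the median of the centrosome genes was -0.19 and 36 of 43 were still negative, and after a correction for length it was -0.21 with 35 negative. SASS6, at 34.95% GC, moved from -0.44 to -0.27 under the GC correction. CEP250, at 53.5%, moved from -0.47 to -0.55, and ODF2, at 51.04%, from -0.46 to -0.51, so that both then met the criteria.

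**Figure D5:**
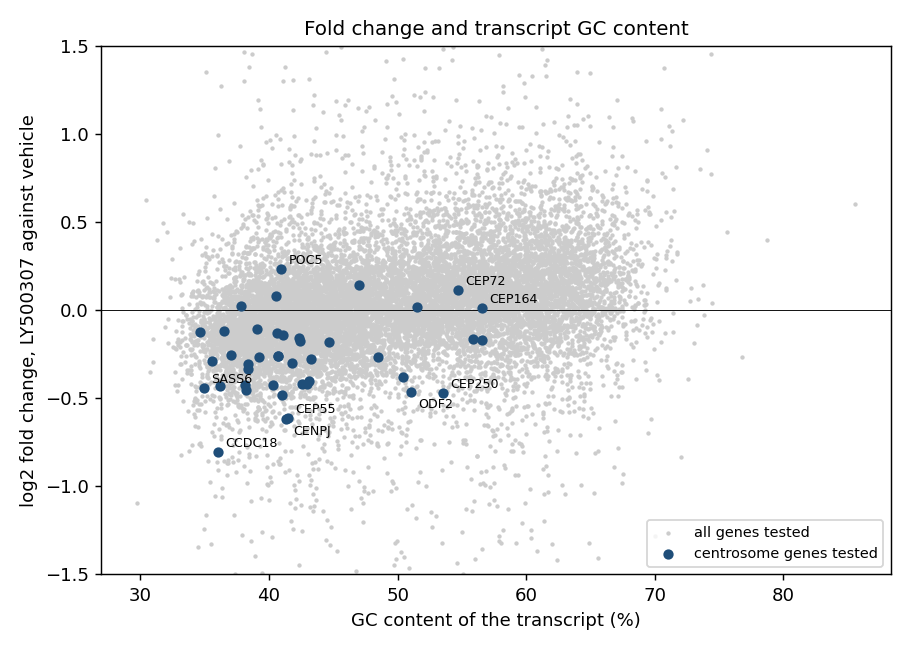
The horizontal axis is the GC content of the transcript in percent and the vertical axis the log2 fold change of LY500307 against vehicle, with all annotated genes tested in grey and 42 centrosome genes in blue. Genes beyond 1.5 log2 units are outside the frame. Most blue points lie left of the middle of the grey cloud and below 0, while CEP250 and ODF2 are low at a GC content above 50%.

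Other genes of the centrosome were taken from a list by role that leaves out the genes above. Of 61 symbols in the files 60 were tested, 48 with a negative and 12 with a positive fold change, and the median was -0.15. None met the criteria as lower in edgeR or DESeq2. At an unadjusted p below 0.05 with a negative fold change there were 15 of the 60 in edgeR, where 5.5% of all genes tested were, and 10 in DESeq2, where 4.46% were. The list was written with earlier results of these data known, so nothing is read from these counts. As higher, 1 of the 60 met the criteria in edgeR, where 2.76% of all genes did. That gene was MZT2B, which encodes a small subunit of the gamma-tubulin ring complex. It had 29.2 and 26.99 CPM in the vehicle samples and 33.6 and 64.8 CPM in the LY500307 samples, so the groups did not overlap. The log2 fold change was 0.81 (SE 0.27, edgeR Benjamini-Hochberg adjusted p = 0.422). Without LY500307 replicate 2, where the spread again comes from the vehicle pair alone, it did not meet the criteria. MZT2A, a close copy of it, was at 0.33, and whether reads were shared between the pair was not measured. TUBG1, the gamma-tubulin at which microtubules start, had 78.9 and 82.9 CPM in the vehicle samples and 86.1 and 63.3 CPM in the LY500307 samples, and the groups overlapped. The mitotic kinase AURKA had 109 and 94.7 CPM in the vehicle samples and 89.96 and 90.4 CPM in the LY500307 samples, with both LY500307 values below both vehicle values and a log2 fold change of -0.18 (SE 0.11). NEK2, the kinase that opens the linker before mitosis, had 60.96 and 64.7 CPM in the vehicle samples and 51.3 and 46.1 CPM in the LY500307 samples, at -0.37 (SE 0.11). The lowest of the list were CNTLN, a linker protein, at -0.45 and SCLT1, of the distal appendages, at -0.44. Genes of the linker and appendages had a median of -0.32 over 8 tested, and those of microtubule nucleation -0.06 over 19.

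Markers of dividing cells and of cell types were read beside these values. The summed level of 6 proliferation genes (MKI67, TOP2A, CCNB1, CDK1, CCNA2 and PCNA) was 2179 and 2109 CPM in the vehicle samples and 1930 and 1800 CPM in the LY500307 samples. Both LY500307 samples lay below both vehicle samples for 3 of the 6 (24.4% of all genes), which were MKI67, TOP2A and CCNA2, with log2 fold changes of -0.42, -0.29 and -0.10. The groups overlapped for CCNB1, CDK1 and PCNA, at 0.16, -0.01 and -0.10, so the genes of this list did not move together. The part of these differences in the centrosome values was not tested. The epithelial list (KRT8, KRT18, EPCAM, CDH1, PAX8 and ERBB2) summed to 284 and 294 CPM in the vehicle samples and 330 and 283 CPM in the LY500307 samples, most of it EPCAM, with PAX8 at 0 reads in every sample. Both LY500307 samples lay above both vehicle samples for 3 of these 6 (24.2% of all genes), which were KRT18, ERBB2 and CDH1, the last with at most 4 reads in a sample, and the part of this in the centrosome values was not tested. The aldehyde dehydrogenase genes ALDH1A1, ALDH1A2 and ALDH1A3, to which the sort relates, summed to 15.6 to 17.1 CPM. Immune markers (PTPRC, CD3E and CD14) stayed below 1 CPM in sum, at 0.202 to 0.915, and endothelial ones (PECAM1, CDH5 and VWF) at 0.0334 to 0.371. The fibroblast list (DCN, LUM and PDGFRB) summed to 28.2 to 28.3 CPM in the vehicle and 25.2 to 27.3 CPM in the LY500307 samples. DCN and LUM were below in both LY500307 samples (24.4% of all genes), with log2 fold changes of -0.20 and -0.10. PDGFRB was at 0.23, and its groups overlapped. In these counts the receptor gene ESR2 was barely detected, with 7 and 8 reads after vehicle and 12 and 7 after LY500307, and ESR1 had 0 in all 4 samples. The study reports the ESR2 protein by antibody staining of ALDH+ cells from SKOV3 and its RNA by RT-qPCR in SKOV3 spheroids. It also reports an estrogen response element reporter that LY500307 raised in SKOV3 spheroids. Those measures differ from read counts and were not compared here.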

How the data were processed

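RNA-seq counts were analysed for SKOV3-ALDH+ OCSCs given vehicle or 5 µM LY500307 for 24 h (2 samples each), grouped by the sample labels. The authors aligned reads to hg19 with TopHat2 2.0.8b, counted them per gene symbol with HTSeq and deposited raw counts. The study's methods describe stranded mRNA libraries and the labels total RNA libraries. The tally of reads on no gene (17.3% to 20.5% of tallied reads) was left out. The counts of 14473 genes that passed filterByExpr were fitted in R 4.3.3 with edgeR 4.0.16 (TMM, quasi-likelihood test, Benjamini-Hochberg adjustment). DESeq2 1.42.0, the study's tool, was an alternative. Genes were called at a log2 fold change beyond 0.5 in size with an unadjusted p below 0.05. Transcript lengths and GC shares were read from a GRCh37 annotation (91.8% of symbols matched, 44 of 44 centrosome genes), and corrections subtracted a loess curve (span 0.3) per sample. The members and lists were chosen with earlier results of these data known. Values per sample were printed for CENPJ, CCDC18, genes meeting the criteria, the 10 largest fold changes and PLK4, STIL, SASS6, PCNT, CDK5RAP2, PCM1 and CEP192, and of the other list for genes meeting the criteria and TUBG1, AURKA and NEK2. POC5, CEP68, CNTLN, SCLT1 and MZT2A were added after their values were seen. Of the list of other genes, CEP295, CEP83, CEP131, CEP162 and CEP126 were looked up under older symbols. CEP41 was not in the count files under that symbol, and no value is given for it. Alternatives covered normalization, filter, replicate block, length, GC content and each sample left out. The fit was tested on simulated data. Values of 1 centrosome gene and 1 marker gene are not reported here, and the figures draw the 42 other centrosome genes tested.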

Additional observations from a re-analysis of the deposited data

How the results depend on the processing

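Of the 7 results tried under 14 alternatives, the median of the centrosome genes, CENPJ and CCDC18 stayed negative in each. CENPJ and CCDC18 chose the list, so nothing is read from their sign. The other 4 were counts of genes at the criteria, which have no sign to reverse. The 3 centrosome genes lower at the criteria became 5 with the GC correction, where 1.82% of all genes were called lower. They were also 5 with the replicate block and GC correction together, where 2.05% were (CEP250 and ODF2 joined in both). The number of centrosome genes at the criteria is not given for fits that leave 1 sample in a group. With 1 LY500307 sample left out, the spread comes from the vehicle pair alone and the lone LY500307 sample is assumed to vary like it. Without LY500307 replicate 1 the median of the centrosome genes was -0.41, CENPJ was at -0.89 and CCDC18 at -1.17. Without LY500307 replicate 2 they were at -0.14, -0.39 and -0.52, with CENPJ inside the fold limit of 0.5. With either vehicle sample left out, each lay between these values. Other centrosome genes called lower ranged from 0 to 8 and higher from 0 to 2. Both upper ends came from the fit without LY500307 replicate 1, where 6.17% of all genes were called lower and 7.16% higher. That fit has 1 LY500307 sample, so nothing is read from these ranges. The replicate block alone gave 4 centrosome genes, with CEP112 added, where 2.18% of all genes were called lower, and a median of -0.27. The deviations of same-numbered samples correlated at -0.07 over all genes, -0.23 over the genes at or above the median level and -0.40 over the centrosome genes. No correlation was positive, but this cannot show how the samples were handled. The labels do not state whether same-numbered samples were paired. The block with crossed numbers, chosen after seeing the data, gave the same count, 4, where 2.38% of all genes were called lower. At an adjusted p below 0.05 in edgeR it gave 381 of 14473 genes and 7 of 43 centrosome genes, where the fit without a block gave 0. The replicate block alone gave 1 and 0, and the replicate block with GC correction 74 and 1 (CCDC18). Over all genes, 269 were lower and 400 higher in the reported fit, 210 and 484 with library totals alone, and 264 and 295 with the GC correction. Of 196 single-gene values under the alternatives, 164 kept their side of the criteria and moved by less than the gene's own SD between replicates. That SD is wide where the LY500307 samples differ, so CEP112 is among them at -0.18 without LY500307 replicate 2, against -0.48 in the reported fit. Of the rest, 17 newly met the criteria, 14 moved by more and 1 (CEP55 without LY500307 replicate 2, at -0.42) fell inside the fold limit of 0.5. The cause of these changes was not tested. With 2 samples a group, the chi-square per degree of freedom was 44.9 between the LY500307 samples and 5.27 between the vehicle samples. What limits the precision was not tested.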
